A study of Homo sapiens with 15 samples.

Results

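The family of miR-103a, miR-103b and miR-107 was followed through small RNA libraries of human embryonic kidney cells. Its members were taken by name as all mature miRNAs of these numbers, which gave hsa-miR-103a-3p, hsa-miR-107, hsa-miR-103a-2-5p and hsa-miR-103b, written below without the species prefix. They are 4 of the 2418 miRNAs counted in the FTO knockdown libraries and 4 of the 2189 counted in the precipitation libraries. The family was chosen by the RPM ratio of the anti-m6A precipitate to the IgG control precipitate, which was among the strongest for miR-103a-3p, so the values of that contrast, and of the contrasts with input that share its libraries, are given as descriptions with no test. The change after FTO knockdown was not used for the choice and was tested.

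All libraries came from FTO1C1, FTO2D4 and FTO3C3, derivatives of the Flp-In 293 T-Rex line used without induction, each of them a clone. Every clone gave 1 library after 48 h with 10 nM of FTO specific siRNA (FTO kd) and 1 with 10 nM of scrambled siRNA (scr). It also gave 1 library of small RNA input, 1 of RNA bound by an anti-m6A antibody and 1 bound by an IgG isotype control. No siRNA dose or time is given for the cells of the input and the precipitates. There were thus 5 groups of 3 libraries. The level of FTO itself cannot be read from miRNA counts.

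N6-methyladenosine (m6A) is a methyl mark on adenosine, which METTL3 complexes write and the demethylase FTO can remove. A mature miRNA finds its target mRNAs through its seed, bases 2 to 8, and a hairpin can give a miRNA from its 5′ arm (5p) and from its 3′ arm (3p), of which one is usually kept as the guide. The genes of miR-103a and miR-107 lie in introns of the pantothenate kinase genes PANK1, PANK2 and PANK3, whose enzymes catalyse the entry step of coenzyme A synthesis, and both miRNAs are known as regulators of insulin sensitivity in liver and fat, where caveolin-1 is a target, and as repressors of DICER1.

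The mature sequences, from RefSeq, are shown because the family differs in few bases and the results turn on those. Capitals mark the seed.
miR-103a-3p: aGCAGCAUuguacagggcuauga
miR-107: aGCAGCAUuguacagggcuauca
miR-103a-2-5p: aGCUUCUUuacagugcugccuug
miR-103b: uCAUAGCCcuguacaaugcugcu

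All 4 are 23 nt long. miR-103a-3p and miR-107 share the seed GCAGCAU, which no other matched miRNA of the precipitation libraries has, and agree at 22 positions. Their only difference is G22C, counted from 1 at the 5′ end of miR-103a-3p, and it is shown here in capitals.
miR-103a-3p: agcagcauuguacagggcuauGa
miR-107: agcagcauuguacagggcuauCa

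The first 21 bases are thus the same in both. Where several miRNAs were possible, a read was counted for the best match. A read that ends before base 22 cannot tell miR-103a-3p from miR-107, and the split between the pair is uncertain to that extent. The number of such reads was not analysed here.

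In RefSeq on GRCh38.p14, miR-103a-3p is annotated at chr5:168560904-168560926 on the minus strand, within PANK3, and at chr20:3917541-3917563 on the plus strand, within PANK2. Its counts sum both loci. miR-107 is at chr10:89592756-89592778 on the minus strand, within PANK1. All 3 lie on the strand of the host gene. miR-103a-2-5p, the other arm of the PANK2 hairpin, is at chr20:3917504-3917526 on the plus strand. miR-103b has the same intervals as miR-103a-3p on the opposite strands and is its exact reverse complement.

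The total of miRNA reads was 1991317 to 3876806 per knockdown library, 1408702 to 1500357 per input, 569501 to 4973238 per m6A library and 186446 to 786688 per IgG library. Levels are in RPM, the reads of a miRNA per 1000000 miRNA reads of its library, and ratios were taken within each clone. One miRNA, miR-6080, took 41.3% to 47.8% of the m6A reads, 58.0% to 71.6% of the IgG reads and 15.5% to 28.4% of the input reads, so every RPM value of the precipitates depends on it. The count of miR-6080 in FTO2D4 was 563404 in both the m6A and the IgG library, 41.3% and 71.6% of their reads. If that count belongs to only one of them, the total of the other, and each RPM and ratio of FTO2D4 made from it, would be wrong, which was not tested. Values with miR-6080 left out of the totals do not use this count. Of 10 miRNAs known from liver, blood, muscle, neurons or mesenchyme, 8 were counted in scr at means of 5.17 to 62.1 RPM and 7 in the inputs at 5.97 to 584 RPM, the highest being the myeloid miR-223-3p, and their part in the results was not tested. The replicates are the 3 clones. With the clone as a block or as a pair, p-values measure how the change varied between them. In bulk RNA, fewer cells with a miRNA and less of it per cell cannot be told apart.

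hsa-miR-103a-3p was the abundant member before any precipitation. With scrambled siRNA, FTO1C1 had 2583 RPM, FTO2D4 2261 and FTO3C3 2873, a mean of 2572 ± 306 RPM (SD, n = 3), which ranked 50 of 2418 miRNAs. In the inputs it had 1447, 1849 and 1544 RPM in the same order of clones, a mean of 1613 ± 210, at rank 48 of 2189. The clones lay close together in both groups.

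hsa-miR-107, its relative with the shared seed, was lower in the same cells. It had 285, 255 and 311 RPM with scrambled siRNA, a mean of 284 ± 28.2 at rank 189. In the inputs it had 104, 156 and 131 RPM, a mean of 130.4 ± 25.6 at rank 283. The levels of miR-107 and miR-103a-3p did not overlap in either group.

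The other arm of the PANK2 hairpin, miR-103a-2-5p, was rare. It had 19.0, 15.02 and 16.1 RPM with scrambled siRNA and 66.0, 36.3 and 64.0 RPM in the inputs, which is 32 to 69 and 53 to 96 reads. The antisense miR-103b had 10.4, 15.4 and 11.6 RPM with scrambled siRNA and 10.6, 6.85 and 6.67 RPM in the inputs, from as few as 10 reads. At these depths the order of the rare pair in scr, 16.7 ± 2.05 against 12.5 ± 2.61 RPM, was not settled, since FTO2D4 had 15.02 and 15.4 RPM. In the inputs, however, miR-103a-2-5p was above miR-103b in each clone. A threshold of 15 RPM in all 3 scr libraries was passed by miR-103a-3p, miR-107 and miR-103a-2-5p, against 42.7% of all miRNAs.

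**Figure D1:**
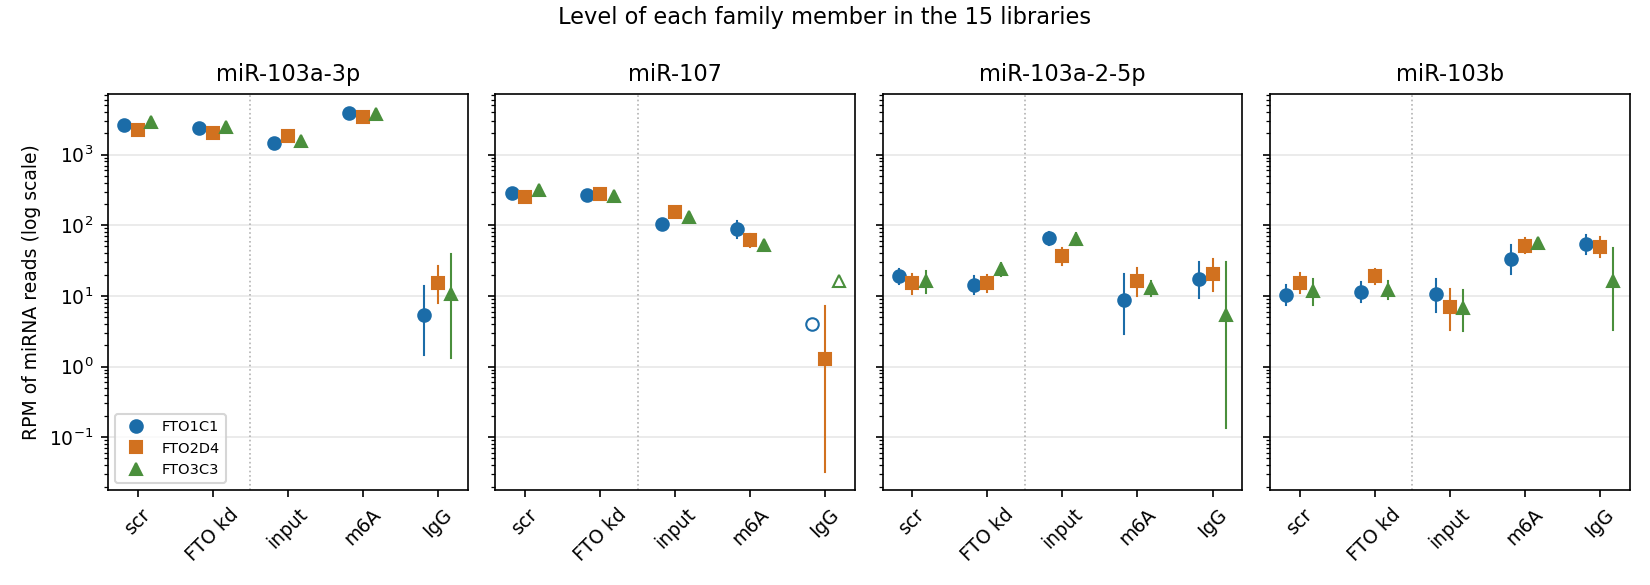
Level of the 4 family members in each library, in RPM on a log axis, for scr, FTO kd, input, m6A and IgG. Symbols are the clones, bars are 95% exact binomial intervals of the level, and open symbols stand at 3 reads where the count was 0. miR-103a-3p lies at 1447 to 3902 RPM in every group except IgG, where it falls to 5.39 to 15.3 RPM, whereas miR-103b is highest in the precipitates.

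In the anti-m6A precipitate, miR-103a-3p had 3902 RPM in FTO1C1, 3381 in FTO2D4 and 3756 in FTO3C3, from 2222, 4607 and 18678 reads. This is a mean of 3679 ± 269 RPM at rank 20. In the IgG precipitate it had 5.39, 15.3 and 10.7 RPM, from no more than 4, 12 and 2 reads, a mean of 10.5 ± 4.93 RPM at rank 1762. Each m6A library was thus far above each IgG library.

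The m6A over IgG ratio of miR-103a-3p was 723 in FTO1C1 (95% interval 282 to 2657), 222 in FTO2D4 (127 to 429) and 350.1 in FTO3C3 (96.9 to 2891), with exact conditional binomial intervals. They cover counting error only, as do all exact intervals and floors given here, and leave out variation between clones. PCR reads without molecular identifiers are not independent molecules, so even the counting error may be larger than these intervals show. The mean of 432 ± 261 ranked 1 among the 445 miRNAs with at least 100 RPM in all 3 m6A libraries, and also among all 2189, with 3 reads standing in for an IgG count of 0. The next were miR-500a-3p with 422 ± 516 and miR-136-5p with 262 ± 203, and these means differ by less than their spread. miR-500a-3p had no IgG read in 1 clone, and with 1 read in place of 0 its mean was 485 ± 465 and miR-103a-3p came at rank 2. Without FTO1C1 the mean of miR-103a-3p was 286. The size of the ratio rests on the 18 IgG reads of 3 libraries, and with 3 reads for a count of 0 the first rank remained with TMM scaling, where the ratios were 435, 113 and 243, and with miR-6080 left out of the totals, where they were 485, 107.2 and 265.

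miR-107 had 87.8, 61.6 and 51.7 RPM in the m6A libraries, from 50, 84 and 257 reads. Its IgG libraries held 0, 1 and 0 reads, and the floor of 3 reads set for a count of 0 is 4.05 RPM in FTO1C1 and 16.1 RPM in FTO3C3. At this floor the m6A over IgG ratio was at least 21.7 in FTO1C1 and at least 3.21 in FTO3C3, and the 95% exact two-sided intervals of the ratio begin lower, at 17.003 and 2.59. In FTO2D4, with its single IgG read, it was 48.5 (8.47 to 1938). miR-107 was below 100 RPM in all 3 m6A libraries, so of the 4 members only miR-103a-3p had both 100 RPM and a ratio of 2, a rule that 11.8% of all miRNAs met.

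Neither rare member was separated from the IgG control. The m6A over IgG ratio of miR-103a-2-5p was 0.501, 0.794 and 2.40, from 5, 22 and 64 reads in m6A and 13, 16 and 1 in IgG. That of miR-103b was 0.618, 1.04 and 3.47, from 19, 70 and 278 reads against 40, 39 and 3. In both, FTO3C3, the clone with the deepest m6A and the shallowest IgG library, had the highest ratio. The RPM of all m6A libraries lay above those of all IgG libraries for miR-103a-3p and miR-107, 2 of the 4 members, against 45.9% of all miRNAs, and the choice of the family used this contrast.

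The same libraries set against input gave a different order of the members. For miR-103a-3p the m6A over input ratio was 2.70, 1.83 and 2.43, a mean of 2.32 ± 0.445. This mean ranked 1378 of all 2189 miRNAs, where the median was 3.47. Among the 936 miRNAs with at least 15 RPM in all 3 inputs it ranked 332, where the median was 1.45. With TMM scaling the ratio was 1.01, 0.722 and 0.672 (median of all miRNAs 1.16, rank 1367), so whether miR-103a-3p lay above or below input depended on the scaling. By contrast, its IgG over input ratio was 0.00373, 0.00825 and 0.00695, a mean of 0.00631 ± 0.00233 at rank 2168, near the bottom of the list, where the median was 1.62. Among the 66 miRNAs with at least 1000 RPM of input, a level chosen after the values were seen, miR-103a-3p was in place 2 from the top for m6A over input (median 0.341) and in place 9 from the bottom for IgG over input (median 0.0270).

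miR-107 was lower in the m6A precipitate than in input in every clone, with m6A over input ratios of 0.841, 0.396 and 0.394 and a mean of 0.544 ± 0.258 at rank 1975. This direction also held with TMM scaling, with a mean of 0.194, but in FTO1C1 the ratio was 1.16 when miR-6080 was left out of the totals. Its IgG over input ratio was 0 in FTO1C1 and FTO3C3 and 0.00817 in FTO2D4, close to the 0.00825 of miR-103a-3p in that clone. At 1 IgG read, a difference between the pair in the IgG precipitate was not detectable.

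miR-103a-2-5p was lower than input in both precipitates, with m6A over input ratios of 0.133, 0.445 and 0.201 and IgG over input ratios of 0.266, 0.560 and 0.0838. With miR-6080 left out of the totals, the IgG ratio of FTO2D4 was 1.45. miR-103b, in contrast, was higher than input in both, with m6A over input ratios of 3.13, 7.50 and 8.39 and IgG over input ratios of 5.07, 7.24 and 2.41. The 2.41 of FTO3C3 rests on 3 IgG reads and 10 input reads, and its 95% interval, 0.427 to 9.38, includes 1. All 6 ratios of miR-103b stayed above 1 with TMM scaling, the lowest being 1.08.

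Counted as libraries that do not overlap, miR-103a-3p and miR-103b were higher in m6A than in input, against 67.9% of all miRNAs, and miR-107 and miR-103a-2-5p were lower, against 11.1%. In IgG, miR-103b was higher than input, against 38.3% of all miRNAs, and the other 3 members were lower, against 22.5%. These contrasts share their m6A, IgG and input libraries.

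**Figure D2:**
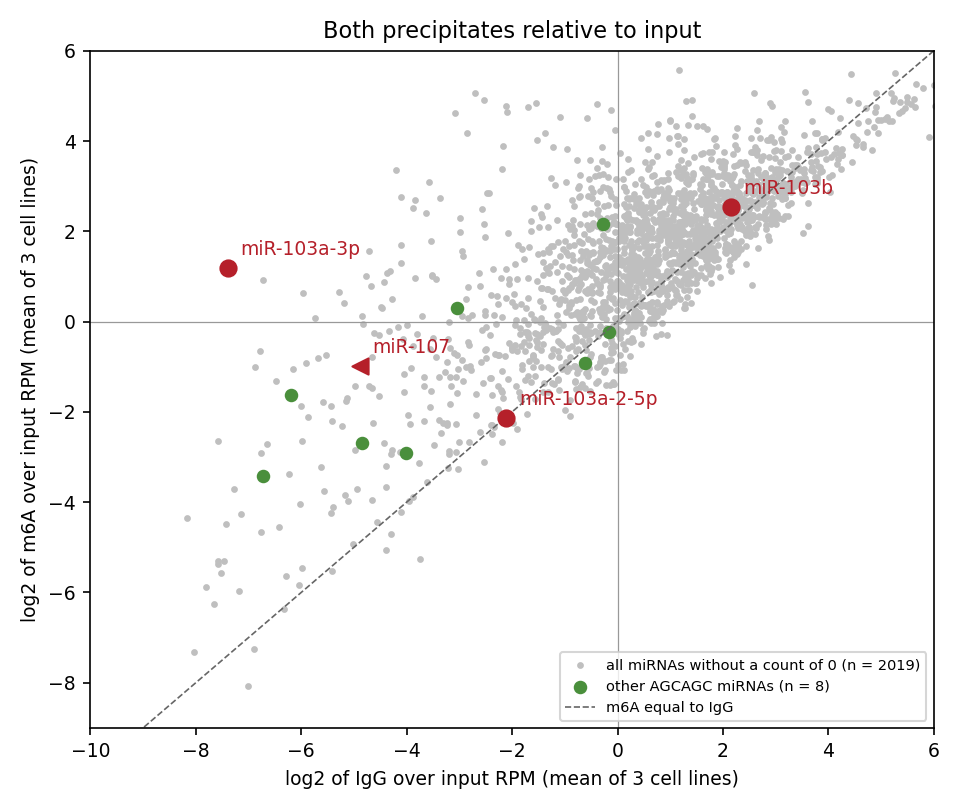
Mean log2 of the RPM ratio over the 3 clones, m6A over input on the vertical axis and IgG over input on the horizontal axis, for the 2019 miRNAs without a count of 0 in these libraries (grey), the family (red) and 8 other miRNAs with AGCAGC near the 5′ end (green). The dashed line marks equal m6A and IgG levels. hsa-miR-103a-3p lies at -7.39 on the IgG axis and 1.19 on the m6A axis, far from the line, miR-107, a triangle because its IgG value is an upper bound, lies lower, and miR-103a-2-5p and miR-103b lie near the line.

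A ratio of members within 1 library needs no scaling between libraries. There were 9.08, 8.87 and 9.23 reads of miR-103a-3p for each read of miR-107 with scrambled siRNA, and 13.9, 11.9 and 11.8 in the inputs, means of 9.06 ± 0.179 and 12.5 ± 1.18. In the m6A precipitates there were 44.4, 54.8 and 72.7, a mean of 57.3 ± 14.3. The m6A libraries were all above the inputs, by 1.68, 2.21 and 2.63 on the log2 scale and by 2.17 ± 0.47 on average. This is a pair of miRNAs that differ by G22C alone, and the m6A libraries are among those that chose the family, so the shift is a description. In the IgG precipitates 12 reads of miR-103a-3p stood against 1 of miR-107 in FTO2D4, and 4 and 2 reads against 0 in FTO1C1 and FTO3C3.

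The sense and antisense members changed places in the IgG control of FTO1C1 and FTO2D4. There were 212 ± 69.0 reads of miR-103a-3p for each read of miR-103b in the inputs and 83.3 ± 29.1 in the m6A precipitates. In the IgG precipitates there were 0.358 ± 0.287, with miR-103b at 40, 39 and 3 reads against 4, 12 and 2. In FTO3C3 the 95% interval of the ratio, 0.0557 to 5.82, includes 1, so its order was not settled. The ratio of miR-103a-3p to the other hairpin arm miR-103a-2-5p was 32.3 ± 16.1 in input, 315 ± 119 in m6A and 1.02 ± 0.878 in IgG. The IgG ratios rest on 18 reads of miR-103a-3p in all.

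**Figure D3:**
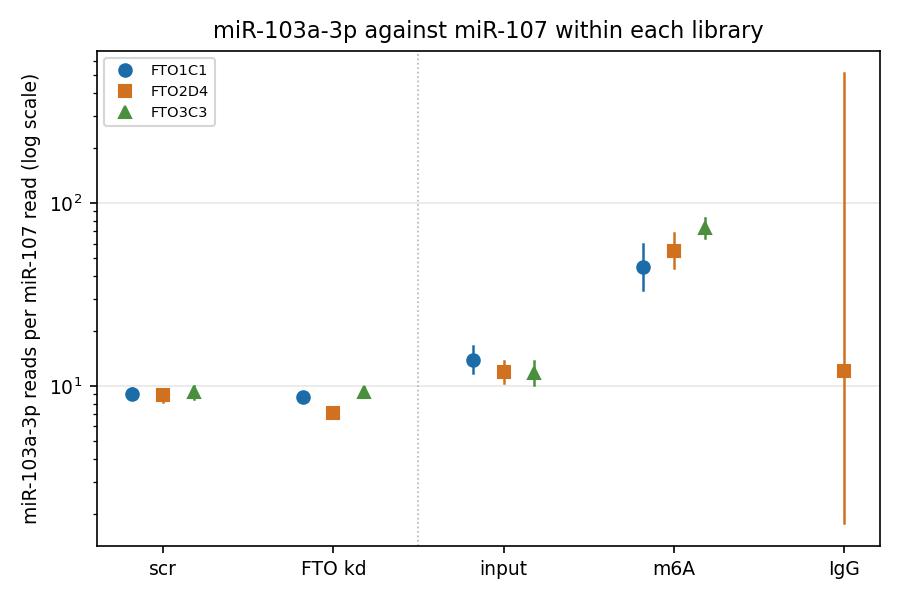
Reads of miR-103a-3p per read of miR-107 in each library, on a log axis, for scr, FTO kd, input, m6A and IgG, with 95% exact intervals of the ratio. The 3 m6A libraries lie between 44.4 and 72.7, above all input, scr and FTO kd libraries, and IgG has a value only in FTO2D4, with a wide interval.

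The sequences were searched for adenosine motifs on the RNA strand as written. The letters RAC, spelled out as AAC and GAC, are the core of the m6A consensus of mRNAs and occurred in 39.2% of the 1923 miRNAs of the precipitation libraries with a RefSeq sequence. RRACH, searched as AAACA or AAACC or AAACU or AGACA or AGACC or AGACU or GAACA or GAACC or GAACU or GGACA or GGACC or GGACU, occurred in 22.9%, and each such match also holds RAC. Neither is in the letters of the 4 family members. ADRA, which came out of the study's own unbiased motif search on these precipitates and is thus no independent choice, was spelled out as AAAA or AAGA or AGAA or AGGA or AUAA or AUGA and occurred in 33.5%. It was found in miR-103a-3p, as AUGA from base 20, and in none of the other 3 members. In miR-107 the G22C difference falls inside these letters, whereas miR-103a-2-5p and miR-103b are different sequences. These matches are descriptions of the letters only.

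By Pearson's r of log2(RPM + 1) over the 9 precipitation and input libraries, the miRNAs most like miR-103a-3p, of 935 others with at least 15 RPM in all inputs, were miR-378a-3p (r = 0.998), miR-191-5p (0.994), let-7f-5p (0.989), miR-7703 (0.988) and miR-183-5p (0.988). The m6A over IgG ratio of miR-378a-3p was 240.3, its m6A over input ratio 1.98 and its IgG over input ratio 0.0101. miR-107, with IgG counts of 0, 1 and 0 in FTO1C1, FTO2D4 and FTO3C3, came at rank 33 (0.961). Those most like miR-107 were miR-1468-3p (0.992), miR-10b-5p (0.991), miR-22-3p (0.989), miR-10a-5p (0.989) and miR-151a-3p (0.988), with m6A over input ratios of 0.416 to 0.639. All values of a library share its depth and its miR-6080 share, and the m6A and IgG libraries among the 9 chose the family, so r is a description. The sequence of miR-378a-3p, a miRNA from an intron of PPARGC1B with a part in energy metabolism, holds GGACU, with the RAC letters in capitals. Of the 5 miRNAs most like miR-103a-3p, miR-191-5p also holds RAC, and let-7f-5p, miR-7703 and miR-183-5p, like miR-103a-3p, do not.
miR-378a-3p: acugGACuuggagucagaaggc

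Lowering the demethylase FTO addresses whether the steady state of the members follows it. No member passed the test. With FTO siRNA, miR-103a-3p had 2349 RPM in FTO1C1, 1988 in FTO2D4 and 2418 in FTO3C3, against 2583, 2261 and 2873 with scrambled siRNA. It was lower in 3 of 3 clones, with ratios of 0.910, 0.879 and 0.842, although the groups overlapped. The log2 fold change in edgeR's quasi-likelihood test with the clone as a block was -0.19 with a standard error of 0.13 and an interval of -0.48 to 0.10, and the Benjamini-Hochberg adjusted p was 0.379. In fold terms the interval ran from 0.715 to 1.07, so a change within these bounds could not be told from none.

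miR-107 had 270.1, 280 and 261 RPM with FTO siRNA, against 285, 255 and 311, with ratios of 0.949, 1.10 and 0.839. It was lower in FTO1C1 and FTO3C3 and higher in FTO2D4. Its log2 fold change was -0.06 with a standard error of 0.16 (interval -0.41 to 0.28, edgeR adjusted p = 0.817). When the reads of miR-103a-3p and miR-107 were counted together, as the shared 21 bases allow, the log2 fold change was -0.18 (edgeR adjusted p = 0.413).

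miR-103a-2-5p had 14.4, 15.3 and 24.0 RPM with FTO siRNA, with ratios of 0.758, 1.02 and 1.49, and miR-103b had 11.5, 19.1 and 12.1 RPM, with ratios of 1.10, 1.24 and 1.05. Their log2 fold changes were 0.06 with a standard error of 0.23 (edgeR adjusted p = 0.894) and 0.18 with a standard error of 0.21 (edgeR adjusted p = 0.607). In RPM, miR-103b was thus higher in 3 of 3 clones, by less than its error. Its ratio was below the median of all miRNAs in each clone, which was 1.29, 1.32 and 1.08.

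In this comparison edgeR called 130 of 2374 miRNAs, 5.48%, of which 118 (4.97%) were higher and 12 (0.505%) lower, and 0 of the 4 members. With TMM scaling, 21 were higher and 34 lower, without the block 41 were called, and without FTO1C1 there was no call. All 4 passed the filter on low counts. None of the 4 had groups that did not overlap, against 28.2% of all miRNAs. Over all tested miRNAs the median log2 fold change was 0.29, so relative to it miR-103a-3p stood at -0.48, and with TMM scaling, which puts that median at 0, its log2 fold change was -0.48 (edgeR adjusted p = 0.129). With DESeq2 it was -0.48 with an adjusted p of 0.0598, the lowest over all alternatives. The same scaling turned the log2 fold changes of miR-103a-2-5p and miR-103b to -0.23 and -0.12, so no direction is given for these.

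The ratio of miR-103a-3p to miR-107 after FTO siRNA was 8.70, 7.11 and 9.25 reads per read, a mean of 8.35 ± 1.11. Against scr it changed by -0.06, -0.32 and 0.00 on the log2 scale, a mean of -0.13 ± 0.17 (SD, n = 3). An exact two-sided permutation test with sign flips within clones gave p = 0.5, where 3 pairs cannot go below 0.25.

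**Figure D4:**
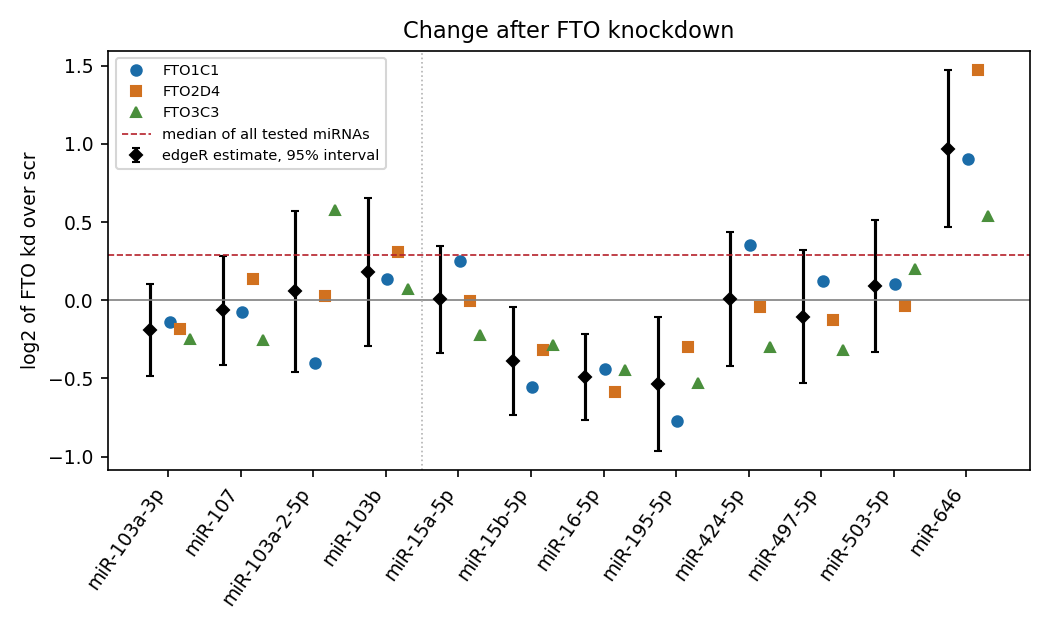
log2 ratio of FTO siRNA to scrambled siRNA in each clone (coloured symbols) and edgeR's estimate with its 95% interval (black) for the 4 family members and 8 other miRNAs with AGCAGC near the 5′ end. The dashed line is the median of all tested miRNAs at 0.29. The intervals of all 4 members include 0, and miR-16-5p and miR-646 are the called miRNAs among the 8.

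The start AGCAGC of miR-103a-3p and miR-107 is shared, shifted by 1 base, with the miR-15 and miR-16 group, known for repressing BCL2 and cell cycle genes. Of the 8 relatives listed here, miR-503-5p and miR-646 have the seeds AGCAGCG and AGCAGCU, and the others have AGCAGCA. miR-6838-5p, which also has the seed AGCAGCA, was not listed. The letters occurred in 1.04% of the 1923 matched miRNAs and are in capitals for the members and for 4 of 8 listed relatives.
miR-103a-3p: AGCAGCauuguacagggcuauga
miR-107: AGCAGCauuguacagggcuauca
miR-16-5p: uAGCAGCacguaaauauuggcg
miR-15a-5p: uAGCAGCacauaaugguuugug
miR-503-5p: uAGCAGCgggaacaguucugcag
miR-646: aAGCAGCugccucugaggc

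After FTO knockdown 1 of the 8, miR-646, rose and 1, miR-16-5p, fell, where 4.97% of all tested miRNAs were called higher and 0.505% lower, while 6 did not pass the test. The median log2 fold change was -0.05 against 0.29 for all miRNAs. miR-16-5p had a log2 fold change of -0.49 with a standard error of 0.12 (edgeR adjusted p = 0.0484), and miR-646 one of 0.97 with a standard error of 0.22 (edgeR adjusted p = 0.0366). Neither was called without the block, without FTO1C1 or without FTO2D4, miR-16-5p was also not called without FTO3C3, and with TMM scaling 0 of the 8 rose and 2 fell. miR-103a-3p and miR-107 lay between these relatives, at -0.19 and -0.06.

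In the m6A precipitate 5 of the 8 relatives fell relative to input, 1 rose and 2 did not pass, where edgeR called 10.5% of all tested miRNAs lower and 66.8% higher. The median log2 fold change of the 8 was -1.26, against 1.65 for all tested miRNAs. The median m6A over input ratio was 3.47 over all miRNAs, but 1.45 over the 936 with at least 15 RPM in all 3 inputs. These 936 held all of the 8 but miR-646. Over the 66 with at least 1000 RPM of mean input, among them miR-16-5p, the median was 0.341. The part of the input level in these calls was not tested. The mean m6A over input ratio was 0.350 ± 0.161 for miR-16-5p and 0.0994 ± 0.0459 for miR-15a-5p, both below the 0.544 of miR-107, whereas it was 4.58 ± 1.37 for miR-646, above the 2.32 of miR-103a-3p. With TMM scaling 0 of the 8 rose and 7 fell, and over all miRNAs 575 were called higher and 614 lower, against 1452 and 229 without it.

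Against IgG, 6 of the 8 relatives passed the filter on low counts, and edgeR called 4 higher, where 38.6% of all tested miRNAs were called higher. With TMM scaling 4 of the 6 were higher and 1 lower, and over all miRNAs the split was 453 higher and 302 lower, against 792 and 26. The highest mean m6A over IgG ratio among the 8 was the 27.6 ± 17.8 of miR-16-5p, against 432 for miR-103a-3p. The mean IgG over input ratio of the 8 ran from 0.0101 to 1.58, against 0.00631 ± 0.00233 for miR-103a-3p. The lowest, miR-15a-5p with 0.0101 ± 0.0046, was not separated from miR-103a-3p. In FTO2D4 it had 0.00693 against 0.00825.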

How the data were processed

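Small RNA of 3 HEK293 derived clones was sequenced in 15 libraries. The authors deposited raw counts of reads per mature miRNA: adapters were trimmed with cutadapt (4 bp overlap, 20% error), reads of 16 to 28 bp were assigned to miRBase release 20 by exact matches (minimum 7 bases, together covering 17 or more), and entries of identical sequence were collapsed. The lowest total of a listed miRNA was 22 reads (knockdown) or 82 (precipitation).

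RPM are reads per 1000000 miRNA reads, after the study's methods, and 3 reads stood in for an IgG count of 0. FTO siRNA was compared with scrambled siRNA by edgeR's quasi-likelihood test (filterByExpr with a minimum count of 10, library size equal to the miRNA total, the clone as a block) over all miRNAs, with Benjamini-Hochberg adjustment at 0.05. The listed relatives were tested likewise in the precipitation libraries. Libraries pair by clone. Their deviations from group means correlated at 0.225 to 0.334 in the knockdown, 0.021 to 0.039 for m6A with IgG and -0.078 to -0.016 for m6A with input. The script was tested on simulated data. Those libraries shared a mean profile apart from the miRNAs that were changed, with no clone effect. The simulation thus does not bear on the choice of block or scaling. The chi-square per degree of freedom between libraries of a group was 7.79 to 166, above sampling noise. Exact 95% intervals are binomial, on the library total for levels and conditional for ratios. The 95% intervals of log2 fold changes come from edgeR's fit and include the variation between replicates.

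The members and lists were chosen with earlier results of these data known. Named were all members, the 5 miRNAs with the highest Pearson's r to miR-103a-3p and to miR-107, and up to 4 of each list with an adjusted p under 0.05. The lists were the AGCAGC group (8), metabolic miRNAs (13) and miRNAs of other cell types (10). Alternatives were TMM factors, DESeq2, no low-count filter, no block, totals without miR-6080 or miR-10a-5p, joint counting of miR-103a-3p and miR-107, and each clone left out. An IgG count of 0 set to 1 read was added after the data were seen. Sequences and positions are from RefSeq on GRCh38.p14, with 1923 of 2189 and 2122 of 2418 miRNAs matched by name. miR-103a-1-5p was not analysed here. The software was Python 3.11.15 with matplotlib 3.10.9, scipy 1.17.1, pandas 2.3.3 and numpy 2.4.6, and R 4.3.3 with DESeq2 1.42.0, limma 3.58.1 and edgeR 4.0.16.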

Additional observations from a re-analysis of the deposited data

How the results depend on the processing

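In the knockdown, edgeR called 130 miRNAs, against 55 with TMM scaling (21 higher, 34 lower) and 41 without the replicate block. With 1 clone left out it called 0 to 201, and the 0 calls came without FTO1C1, where 327 miRNAs had an unadjusted p under 0.05, while DESeq2 on all clones called 91. No member passed in any setting that gave it an adjusted p. The adjusted p of miR-103a-3p was 0.0598 to 0.680 and that of miR-107 0.243 to 0.915 over the alternatives. The log2 fold change of miR-107 was 0.029 without FTO3C3, and -0.16 to 0.029 with 1 clone left out. That of miR-103a-2-5p was -0.23 with TMM scaling, -0.23 with DESeq2 and -0.20 to 0.31 with 1 clone left out (-0.20 without FTO3C3), and that of miR-103b was -0.12 with either scaling. The log2 difference of the ratio of miR-103a-3p to miR-107 was -0.19 to -0.03 with 1 clone left out, and without pairing the exact permutation p was 0.4, where the smallest possible is 0.1.

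The mean m6A over input ratio of miR-103a-3p was 2.32, but 0.802 with TMM scaling and 3.23 with totals without miR-6080, and its IgG over input ratio was 0.00631 and became 0.0143 without miR-6080. With TMM scaling the m6A over input ratio was 0.194 for miR-107, 0.0937 for miR-103a-2-5p and 2.15 for miR-103b. The cause was not tested. With an IgG count of 0 set to 1 read, the mean m6A over IgG ratio of miR-107 was 41.1, against 24.5 with 3 reads, and miR-103a-3p, with no such count, came second after miR-500a-3p. Few IgG reads, 18 of miR-103a-3p and 1 of miR-107, limit every ratio to IgG.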

Other observations

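miRNAs with known parts in lipid and glucose metabolism were listed beside the family. After FTO knockdown 0 of the 13 rose and 1 fell, miR-27b-3p, a repressor of PPARG known from fat cells, while 12 did not pass the test. Of all tested miRNAs edgeR called 4.97% higher and 0.505% lower. It had 11873 ± 561 RPM in scr and 6672 ± 506 RPM in FTO kd (SD, n = 3), a log2 fold change of -0.83 with a standard error of 0.13 (edgeR adjusted p = 0.00976), lower in 3 of 3 clones. The call was lost without FTO1C1 (edgeR adjusted p = 0.117). The median of the list was -0.14, against 0.29 for all tested miRNAs. DESeq2 called 4 of the 13 lower.

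In the m6A precipitate 3 of the 12 counted members of the list were higher than input and 8 lower by edgeR, where 66.8% of all tested miRNAs were called higher and 10.5% lower. All 12 had at least 15 RPM in all 3 inputs. Over the 936 such miRNAs the median m6A over input ratio was 1.45, against 3.47 over all miRNAs. With TMM scaling 0 of the 12 were higher and 9 lower, and over all miRNAs 575 were higher and 614 lower. The mean m6A over input ratio ran from 0.0137 to 4.92, the highest being that of miR-802, a miRNA raised in obese liver. Against IgG, 9 of the 12 passed the filter on low counts and 3 were called higher, against 38.6% of all tested miRNAs. Of these 3, miR-378a-3p had the highest mean ratio, 240.3. With TMM scaling 2 were higher and 1 lower.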
